A study of Catostomus macrocheilus with 21 samples.

Results

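The members of this set are the 200 steadiest probes of intermediate brightness on an oligonucleotide array for the largescale sucker (Catostomus macrocheilus), a bottom-feeding freshwater fish. They were taken from 14758 non-control probes by 3 conditions on 21 liver arrays. The first was a signal well above background, in the scanner's own call, on all 21 arrays, which 7072 probes met. The second was a mean log2 value from 7 to 11 in the authors' normalized table, which left 4493 eligible probes. From these, the 200 with the smallest standard deviation (SD) over the 21 fish were kept, or 4.45% of the eligible probes. The spread over fish therefore chose the members, and it is given below as a description.

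Each array held the liver RNA of 1 wild fish. All fish were reproductive adults, caught at 3 Columbia River sites, Columbia City (6 fish), Longview (7 fish) and Skamania (8 fish). No group was treated, and sex, size and contaminant load are not among the labels. The series was designed to relate gene expression to contaminant exposure across these sites.

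The liver makes most plasma proteins, stores and releases fuel, and breaks down foreign compounds, so many of its transcripts follow feeding, reproduction and exposure. Others, such as many that serve protein synthesis, energy supply or cell structure, tend to vary less, and transcripts of that kind are used as internal references when other genes are quantified. A reference is useful only if its variation between animals is small beside the difference to be measured, and if it does not differ between the groups compared. The files used here pair no probe with a gene or with its sequence, so members are named by probe and by the sequence from which the probe was designed, and no role is given to any of them. Hepatocyte, blood cell and other cell type markers could not be looked up for the same reason, so the labelled tissue was not checked against markers.

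One fish, Longview 6, stood apart in these probes, and values without it are given beside some of the results it touches. Over the 200 members the SD over 21 fish ran from 0.132 to 0.269 log2 units, with a median of 0.240 (0.234 without Longview 6). Across the 4493 eligible probes the median was 0.529 and the highest 3.96. In fold terms, the highest fish exceeded the lowest by a median of 1.86-fold over the members (1.41 to 2.56), against 4.08-fold over the eligible probes. The members thus still spanned close to a doubling between the 2 extreme fish. All 200 had a value on every array, none had a spot marked as an outlier by the scanner software, and none was among the 50 probes printed 10 times per array.

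The steadiest member was LSS_UF_15497, designed from SuckerfishLSS_454Assem.1379.C2, with a mean of 8.79 and an SD of 0.132 (n = 21). Its lowest, median and highest log2 values were 8.62, 8.76 and 9.11 in Columbia City, 8.61, 8.89 and 8.99 in Longview, and 8.62, 8.72 and 8.84 in Skamania. The ranges of the 3 sites overlapped, and the lowest and highest fish, Longview 3 and Columbia City 6, were 1.41-fold apart.

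The second, LSS_UF_13706 (sequence GSITV9302HMLU6), had a mean of 8.49 and an SD of 0.161. Its values were 8.52, 8.58 and 8.75 in Columbia City, 8.15, 8.53 and 8.75 in Longview, and 8.24, 8.36 and 8.69 in Skamania, again lowest, median and highest. Longview held both extremes here, with Longview 1 lowest and Longview 6 highest.

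LSS_UF_19715 (SuckerfishLSS_454Assem.10210.C1) came next, with a mean of 9.45 and an SD of 0.163. Columbia City fish lay from 9.25 to 9.63 with a median of 9.49, Longview fish from 9.31 to 9.66 with a median of 9.56, and Skamania fish from 9.09 to 9.66 with a median of 9.38. Both extremes were Skamania fish, so the spread within that site was as wide as the spread over all 21.

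LSS_UF_24688 (SuckerfishLSS_454Assem.9280.C1) followed, with a mean of 10.32 and an SD of 0.166. Its range was 10.16 to 10.45 in Columbia City (median 10.30), 10.18 to 10.68 in Longview (median 10.41) and 10.01 to 10.60 in Skamania (median 10.24). The next members in order were LSS_UF_22923, LSS_UF_19623, LSS_UF_17700, LSS_UF_13195 and LSS_UF_22170, with SDs of 0.167, 0.168, 0.171, 0.172 and 0.178. In each of these 5 the 3 site ranges overlapped, and the highest fish was 1.47 to 1.58-fold above the lowest.

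The tenth, LSS_UF_21387 (SuckerfishLSS_454Assem.3990.C1), had an SD of 0.179 and 1 fish well apart from its site. Longview 6 was at 9.53 while the other 6 Longview fish lay between 10.02 and 10.33. The 6 Columbia City fish lay between 9.80 and 10.17, and the 8 Skamania fish between 9.81 and 10.10.

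**Figure D1:**
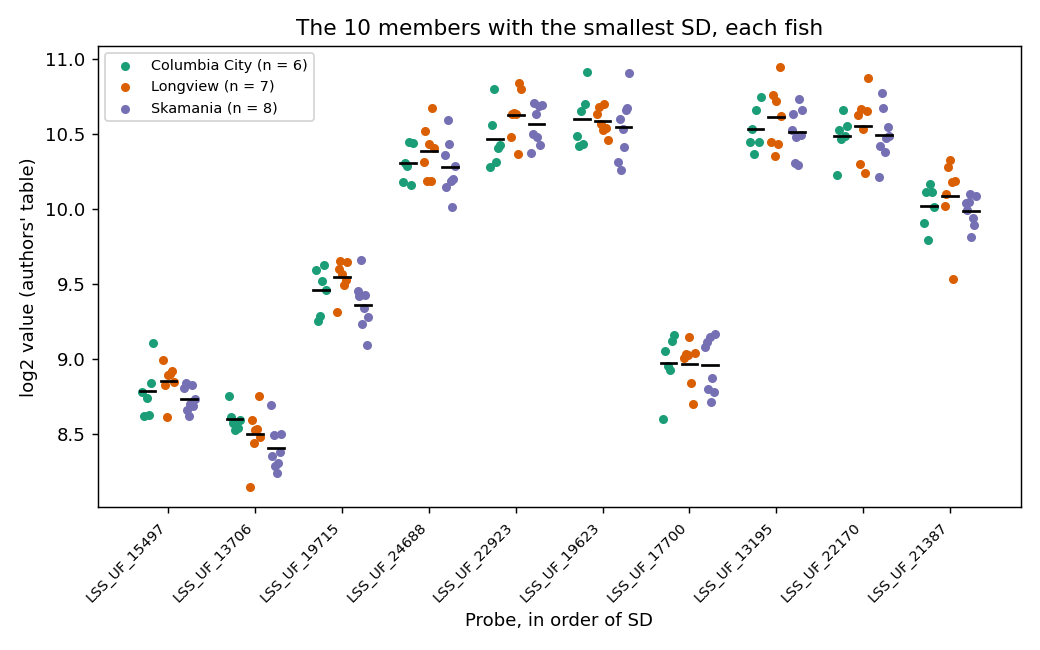
The 10 members with the smallest SD over 21 fish, in order of SD. Each point is 1 fish on the authors' log2 scale (vertical axis), coloured by site, and a black line marks each site mean (6, 7 and 8 fish); the sites overlap in all 10, and in LSS_UF_21387 a single Longview fish lies at 9.53.

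At the other end of the set the threshold fell in a dense part of the distribution. The last members inside, LSS_UF_14628, LSS_UF_16105 and LSS_UF_15864, had SDs of 0.268, 0.269 and 0.269. The first probes outside, LSS_UF_11788, LSS_UF_15500 and LSS_UF_19229, had SDs of 0.269, 0.269 and 0.270. Membership near this edge therefore rested on very small differences.

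Members were unevenly spread over the brightness window. They made up 1.66% of the 1202 eligible probes with a mean from 7 to 8, 3.65% of the 1286 from 8 to 9, 6.22% of the 1125 from 9 to 10 and 7.16% of the 880 from 10 to 11. The median SD of all eligible probes fell over the same classes, from 0.567 to 0.534, 0.503 and 0.4995. Brightness also depends on how well each probe hybridises, so these classes order probes and not transcripts.

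The median SD of the members themselves was close to level across the classes, at 0.240, 0.239, 0.243 and 0.243. The rule cut every class at the same highest SD, so close medians follow largely from the choice. The steadiest member of the dimmest class was LSS_UF_16654 (SuckerfishLSS_454Assem.6566.C1), with a mean of 7.87 and an SD of 0.184. Its fish lay from 7.67 to 8.01 in Columbia City, from 7.56 to 7.92 in Longview and from 7.62 to 8.26 in Skamania, with medians of 7.86, 7.85 and 7.92. The steadiest members of the other 3 classes were LSS_UF_15497, LSS_UF_19715 and LSS_UF_24688.

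How much of this spread could come from the array itself was first measured by the probes printed 10 times on each array. Of the 50, 18 met both conditions of level and detection. For each, the SD between its 10 spots on 1 array was taken on the log2 scale and pooled over the 21 arrays. The median of these spot SDs was 0.0909, and 17 of the 18 lay between 0.0740 and 0.148. The remaining probe, LSS_UF_REP_20042, had a spot SD of 0.471, the highest.

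Every member varied more between fish than the median repeated probe varied between spots. The members' median SD was 2.64 times the median spot SD, the smallest member's 1.45 times and the largest member's 2.96 times. In variance, 1 spot of noise equalled 14.3% of the median member's variance and 47.4% of that of LSS_UF_15497, against 2.95% for the median eligible probe. None of the 18 repeated probes was itself a member: their SDs over fish ranked from 770 to 4469 of 4493, where rank 1 is the smallest. Spot noise was thus measured on other probes of the same arrays and carried over to the members, each of which had a single spot. The same median was used at every level, though spot SDs differed with level. They ran from 0.0980 to 0.134 at means from 7 to 8 and from 0.0760 to 0.0864 at means from 10 to 11. Between these levels they ran from 0.0740 to 0.471. The ratios are therefore rough for members at either end of the window.

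Spots of 1 array share its labelling, hybridisation and scan, so they do not show differences between arrays. The arrays also carry control probes, named E1A in the files, which on this platform match control RNAs added to each sample before labelling. Over 7 such probes with log2 signals from 6 to 18, the SD between arrays was 0.302 (0.242 to 0.348) with no scaling, and 0.0793 (0.0505 to 0.181) once the mean of these probes on each array was removed. On the 75th percentile scale of the site tests it was 0.707 (0.666 to 0.755), above the members' 0.244, so relative to the other probes the control RNAs varied more between arrays than the members did. Only the smallest of these values, which leaves out whatever the control probes of an array share, was carried further. This median was the value of E1A_r60_n11, at a log2 signal of 16.8, brighter than any member. At 9.63, within the members' range of level, E1A_r60_a135 had 0.0888, and at 6.56 E1A_r60_a107 had 0.181. Joined in variance with the spot SD, the 0.0793 gave a technical spread of 0.121. The median member's SD was 1.99 times this value, so it would make up 25.2% of that member's variance. For LSS_UF_15497 the ratio was 1.09 and the share 83.6%, so its spread between fish was hardly larger than this estimate.

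**Figure D2:**
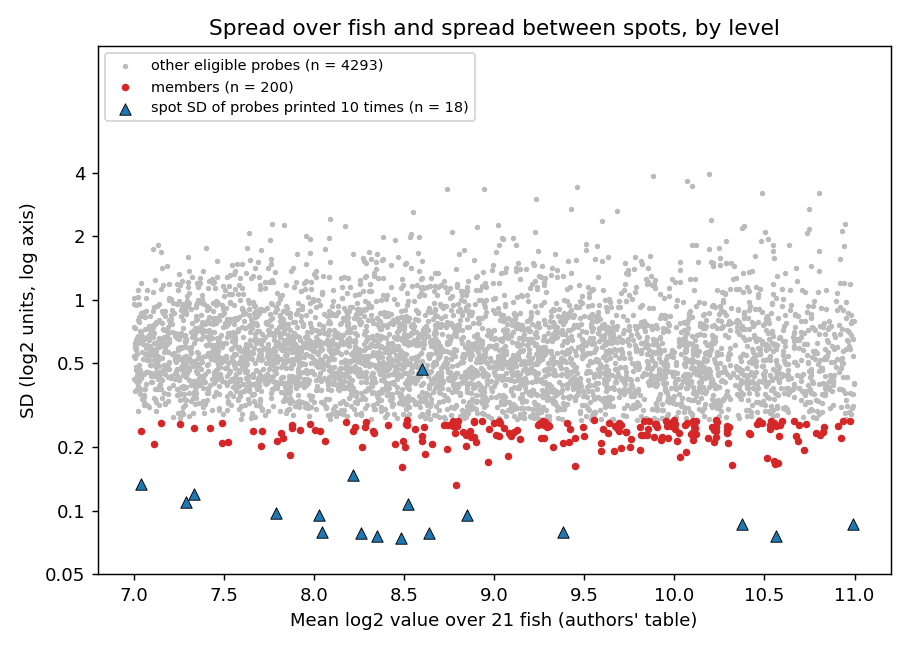
SD on a log axis against mean log2 value over 21 fish, for 4293 other eligible probes (grey), the 200 members (red) and, as triangles, the pooled SD between spots of the 18 probes printed 10 times. All but 1 triangle lie below 0.15, under most members, and the 1 at 0.471 is LSS_UF_REP_20042.

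The small spread of the members also depended on placing the arrays on a common scale. With no scaling of the processed signals their median SD was 0.549, and that of the eligible probes 0.739. The brightness of an array, taken as its log2 75th percentile, ran from 8.09 to 9.98 (SD 0.494 over 21 arrays). After subtracting that percentile from each array the members' median SD was 0.244, after subtracting the median 0.253, and on the authors' scale 0.240. All values are therefore relative to the other probes of the same array, and a change shared by all transcripts would not be seen. In bulk liver, fewer cells of a type and less RNA per cell cannot be told apart.

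Because the fish chose the members, their spread was also measured in fish that the ranking by SD did not use. Each fish was left out in turn, 200 probes were chosen anew on the other 20, and the deviation of the left-out fish from their mean was recorded. The root mean square (RMS) of these 4200 deviations was 0.318, against 0.235 for the SD in the fish that made the choice, or 1.35 times as large. It was 3.50 times the median spot SD and was still below the 0.703 of all eligible probes, a fixed list set on every fish. Detection on every array and the authors' normalization also used the left-out fish, so these deviations are not wholly free of it. Of the deviations, 90.5% were within 0.5 log2 units (1.41-fold) and 99.2% within 1 log2 unit. The largest was 1.94 log2 units (3.85-fold), in Longview 6.

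The 200 probes chosen without a fish shared from 156 to 187 with the members. The lowest overlap was the one without Longview 6, and the next lowest, 172, the one without Columbia City 3.

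Longview 6 stood apart from the other fish in these probes. Its RMS deviation over the members was 0.325, while the other 20 fish lay between 0.184 and 0.267. Left out of the choice, it deviated by 0.585, against 0.237 to 0.378 for the others, and the pooled value without it was 0.299. It held the highest or lowest value of the 21 in 61 of the 200 members, 39 of them the highest and 22 the lowest, while the other fish held between 7 and 30.

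The median deviation of Longview 6 over the members was 0.14 log2 units on the authors' scale and 0.20 after 75th percentile scaling. On the latter scale its median over all eligible probes, 0.09, was also the highest of the 21 fish, so part of this shift was shared by the eligible probes. By RMS over all eligible probes it was not the farthest fish, with an RMS of 0.798 against 0.886 for Longview 2 and 0.802 for Columbia City 3. Its array brightness, 8.27, was near the low end of the range, with only Skamania 5, at 8.09, dimmer. Its slide held 7 other arrays. Whether array, RNA or animal set it apart was not tested.

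**Figure D3:**
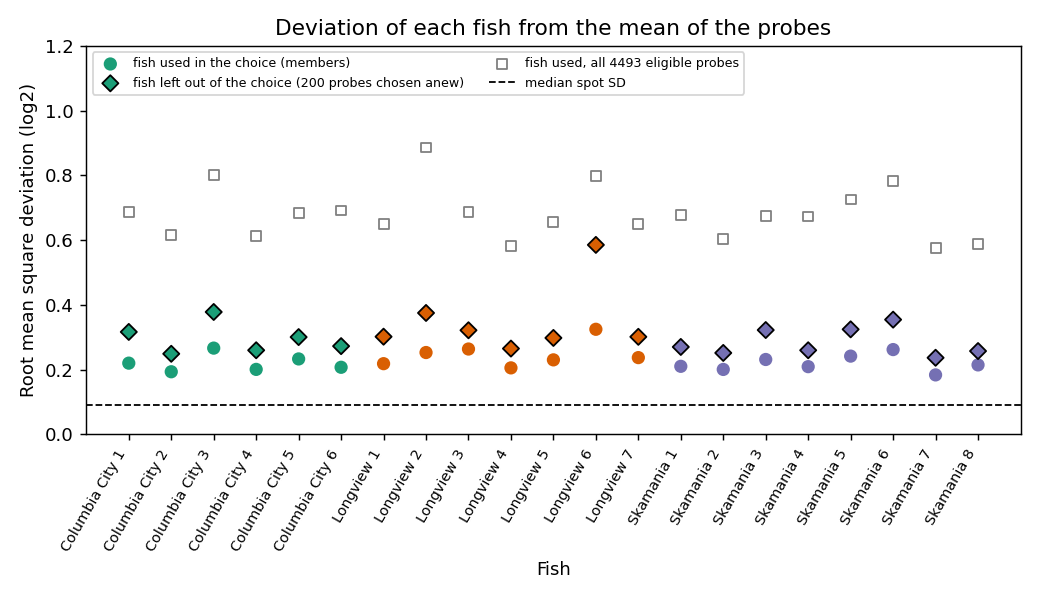
RMS deviation in log2 units (vertical axis) for each of the 21 fish (horizontal axis, coloured by site): circles for the 200 members, diamonds for 200 probes chosen without that fish, open squares for all 4493 eligible probes, and a dashed line at the median spot SD of 0.0909. Longview 6 has the highest circle (0.325) and diamond (0.585), and all circles lie below 0.33.

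Members differed little in kind from the eligible probes in the properties the files hold. The scanner's own error estimate was a median of 10.02% of the signal for the members and 10.04% for the eligible probes. Its highest values were 10.5% and 11.1%. It hardly varied at these levels, so it could not tell the members from the eligible probes. Spots near the edge of the array made up 44 of the 200 members and 22.2% of the eligible probes. Of the members, 97.5% were designed from assembled contigs, against 94.4% of the eligible probes, and 40 of the 200 against 20.6% carried the mark rc in their names.

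Brightness was the clearest difference in kind. The median member had a mean log2 value of 9.57 and a mean signal of 808 units, against 8.81 and 523 units for the median eligible probe, and its signal was 12.1 times its background against 8.13 times.

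The members showed little common movement between fish. The median correlation between pairs of members over the 21 fish was 0.01, and 5.20% of pairs exceeded 0.5 in size, against 10.96% among eligible probes with complete values. With every probe scaled to the same SD, the first principal component held 13.3% of the members' variance and 22.1% of that of the eligible probes. These correlations share arrays and scaling, and they are given as descriptions. The rule kept probes of small total spread, which limits any shared movement, so the gap to the eligible probes cannot be told apart from the choice.

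Some members shared the assembly number in their sequence names with other probes. For 23 members there was at least 1 such probe, and 56 of these related probes were eligible. Of the 56, 6 were members, in 3 groups that each held 2 of them, or 10.7%, against 5.17% of all eligible probes that share an assembly number with another probe. One such group was LSS_UF_10486 and LSS_UF_10487, with SDs of 0.195 and 0.229 around means of 9.81 and 9.83. The correlation between this pair over the 21 fish was 0.05. Of the other 50, 37 came from a single large assembly, number 4, with a median SD of 0.623 (0.270 to 1.54), and 16 of these were below the median of the eligible probes. The 13 from other assemblies had a median SD of 0.365 (0.280 to 1.22), and 11 of them were below it.

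The site comparison asked whether the members differed between Columbia City, Longview and Skamania. It was fitted with limma on log2 processed signals minus the 75th percentile of each array, over the 11040 probes detected above background on 6 or more arrays. A probe was called at a Benjamini-Hochberg adjusted p under 0.05 over all 11040. With 1 array per fish, the p-values measure the spread between fish and between arrays together. The rule kept probes whose total spread was small, which includes any site difference, so the members' counts are descriptions.

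No member was called by the F test over the 3 sites, where the background was 1.76% over all probes tested but 0.223% over the eligible probes, which like the members were detected on every array. At an unadjusted p under 0.05 the F test held 1 member, against 13.3% over all probes and 7.70% over eligible probes, and the smallest adjusted p of the F test over the members was 0.299. For Longview minus Skamania 0 members were called (2.84% over all probes, 0.445% over eligible probes) and 6 were under an unadjusted 0.05 (13.8% and 7.83%). For Columbia City minus Skamania both counts of members were 0. The adjusted backgrounds there were 0 and the unadjusted ones 9.26% and 6.19%. For Longview minus Columbia City 0 were called (both backgrounds 0) and 4 were under an unadjusted 0.05 (9.89% and 8.06%). That background of 0 rested on Columbia City 6: without it 191 of the 11040 probes were called for this pair, though still no member. On the authors' values limma likewise called 0 members, with backgrounds of 0.915% for the F test and 1.54% for Longview minus Skamania.

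Fitted site differences of the members were small and centred near 0. The median log2 difference was 0.04 for Longview minus Skamania, 0.003 for Columbia City minus Skamania and 0.06 for Longview minus Columbia City, with 125, 101 and 121 of 200 above 0. Without Longview 6 these medians were 0.03, 0.003 and 0.02, with 113, 101 and 119 above 0. On the authors' values they were 0.01, -0.003 and 0.03, with 108, 98 and 114 above 0, and after median scaling -0.03, -0.11 and 0.10, so the first 2 had no direction that held across scalings. The largest difference in size was 0.39 (1.31-fold), 0.34 (1.26-fold) and 0.40 (1.32-fold) in the 3 pairs. Site held a median of 9.63% of a member's sum of squares and 10.03% of an eligible probe's, and slide 6.73% and 5.98%. Any grouping of these fish into 3 takes some share by chance, so these values are descriptions.

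The width of the intervals set which site differences remained compatible with the data. The median standard error of a member's difference was 0.157 for Longview minus Skamania, 0.164 for Columbia City minus Skamania and 0.169 for Longview minus Columbia City. For the median member, the 95% interval left out differences beyond 1.35-fold, 1.34-fold and 1.38-fold in these pairs. For all 200 members and all 3 pairs it left out a 2-fold difference in either direction. The farthest bound was 0.74 log2 units (1.68-fold), in LSS_UF_15864. The small total SD required of members limits both the differences and their standard errors, so this result follows largely from the choice. Without Longview 6 the farthest bound was 1.67-fold.

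A limit of 1.5-fold was met by fewer members. The interval lay within 1.5-fold in all 3 pairs in 153 members, or 76.5%, where the background over eligible probes was 8.86%. For the 2-fold limit in all 3 pairs the background was 51.6%. These backgrounds hold probes of larger spread. The SD that chose the members limits both parts of their intervals, so the gap cannot be told apart from the choice.

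The intervals so far are for single probes. Widened by the Bonferroni method over all 600 intervals, none lay within 1.5-fold in all 3 pairs, 124 of 200 members lay within 2-fold, and the farthest bound was 2.38-fold.

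**Figure D4:**
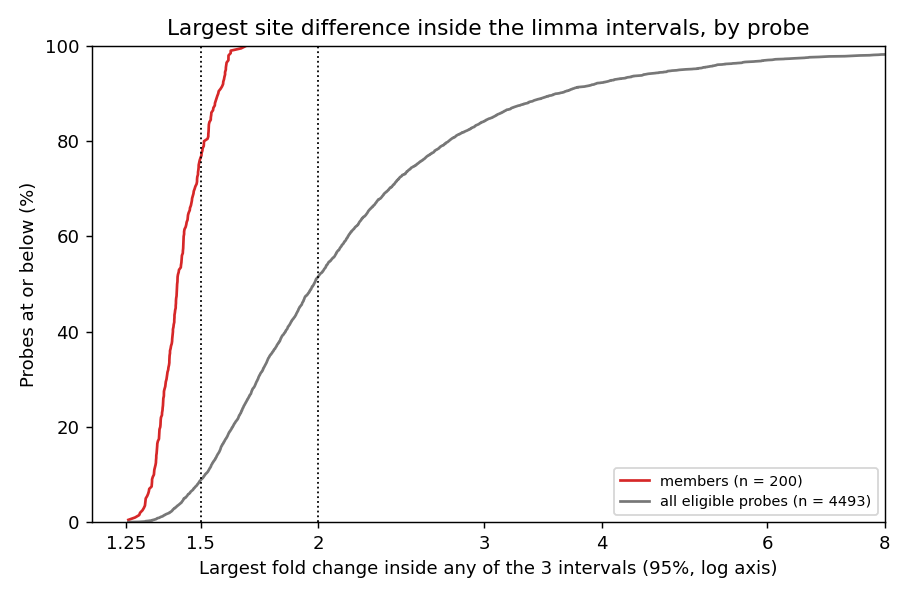
For each probe, the largest fold change inside any of its 3 pairwise 95% limma intervals (horizontal, log axis), as the percentage of probes at or below that value (vertical) for the 200 members (red) and all 4493 eligible probes (grey). Dotted lines mark 1.5-fold and 2-fold, which hold 76.5% and all of the members, and 8.86% and 51.6% of the eligible probes.

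The members with the largest fitted differences show how these limits arise. LSS_UF_16396 (SuckerfishLSS_454Assem.8365.C2) had lowest, median and highest log2 values of 10.09, 10.32 and 10.56 in Longview, 10.47, 10.73 and 11.06 in Skamania, and 10.29, 10.77 and 10.88 in Columbia City. Longview was lower than Skamania with a small overlap of the ranges. The fitted difference was -0.39 (SE 0.138, 95% interval -0.67 to -0.10, limma adjusted p = 0.167).

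Without limma's moderation, on each probe's own residual SD, LSS_UF_16396 was the 1 member called, for Longview minus Skamania (SE 0.0919, adjusted p = 0.0296). The background was 2.63% over all probes tested, and 31 of the 4493 eligible probes were called. Moderation moved the members' residual SDs from a median of 0.237 to 0.304, toward a common value of 0.548. Without it, 185 members lay within 1.5-fold in all 3 pairs.

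LSS_UF_10976 (contig21859) lay from 9.96 to 10.48 in Longview with a median of 10.17, from 9.56 to 10.31 in Skamania with a median of 9.84, and from 9.65 to 10.25 in Columbia City with a median of 9.94. The fitted excess of Longview over Skamania was 0.36 (SE 0.157, 95% interval 0.04 to 0.69), and the limma adjusted p was 0.287. The ranges overlapped over a wide stretch.

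For LSS_UF_15864 (SuckerfishLSS_454Assem.5832.C1) the low site was Columbia City, with 9.53, 10.06 and 10.27, while Longview had 10.001, 10.30 and 10.65 and Skamania 9.84, 10.42 and 10.54. Columbia City minus Skamania was -0.34 (SE 0.177, limma adjusted p = 0.56), and Longview minus Columbia City was 0.37 (SE 0.182, limma adjusted p = 0.525). Its lowest fish, Columbia City 3, was below all others, and every site overlapped the others.

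LSS_UF_10794 (SuckerfishLSS_454Assem.4568.C1) had the reverse order, with Columbia City at 7.70, 7.84 and 8.21, Longview at 7.15, 7.63 and 7.89, and Skamania at 7.33, 7.66 and 7.91. The fitted difference of Columbia City minus Skamania was 0.31 (SE 0.160, limma adjusted p = 0.56), with overlapping ranges.

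LSS_UF_13626 (SuckerfishLSS_454Assem.10356.C1) was the 1 member in which 2 sites did not overlap on the authors' values, and after 75th percentile scaling no member was without overlap. The 7 Longview fish lay from 8.76 to 9.28 with a median of 8.94, just above the 6 Columbia City fish, from 8.41 to 8.75 with a median of 8.57. The 8 Skamania fish covered both, from 8.46 to 9.15. Longview minus Columbia City was 0.40 (SE 0.157, 95% interval 0.08 to 0.73, limma adjusted p = 0.398). Between Longview and Columbia City, 0.326% of all probes tested and 0.401% of eligible probes had no overlap. For Longview against Skamania and Columbia City against Skamania no member was without overlap. The backgrounds were 1.14% and 0.0906% over all probes tested, and 0.111% and 0.156% over eligible probes, so 0 members is near the eligible shares.

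**Figure D5:**
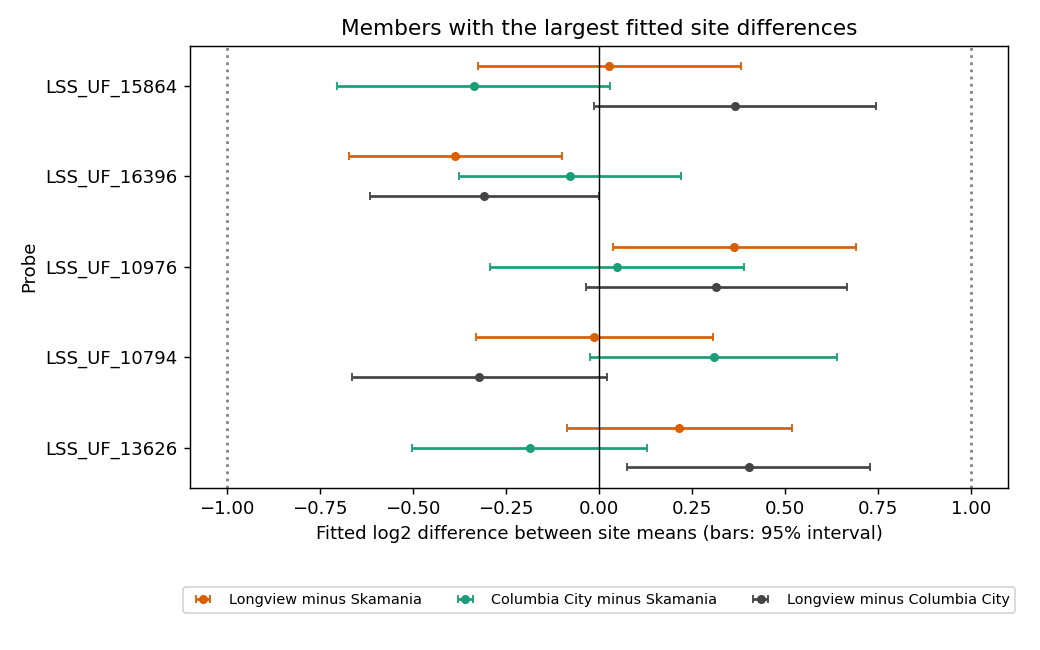
Fitted log2 differences between site means (points) with 95% limma intervals (bars) for the 5 members with the largest differences in any pair, in the 3 pairs of sites; dotted lines mark a 2-fold difference. All 15 intervals lie inside the dotted lines, and the farthest end is at 0.74, for Longview minus Columbia City in LSS_UF_15864.

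Since small site differences were built into the choice, the choice was repeated without each site and that site was then compared with the mean of the other 2. The 200 probes chosen without Columbia City, Longview and Skamania shared 140, 124 and 136 with the members. The median size of the left-out site's difference was 0.11, 0.14 and 0.10 log2 units on the authors' scale, against 0.21, 0.19 and 0.18 for all eligible probes. A difference over 1.5-fold was seen in 1, 1 and 0 of the 200 probes, where the backgrounds over eligible probes were 10.1%, 8.70% and 9.50%. These backgrounds hold probes of larger spread, so the gap cannot be told apart from the choice of steady probes. Probes detected on every array and picked for steadiness at 2 sites were mostly close at the third, with single exceptions.

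The widest exception was LSS_UF_21122 (SuckerfishLSS_454Assem.4788.C1), singled out after its values were seen. Steady in the 14 fish outside Longview, it had values of 9.98, 10.31 and 10.62 there, while the 7 Longview fish had 10.76, 10.89 and 12.94, with Longview 2 highest. All Longview fish were above all others, and the difference of means was 0.93 log2 units (1.91-fold). The Longview mean, 11.22, lay above the median of 10.89, so Longview 2 added to this size. The difference without that fish was not computed. The limma adjusted p was 0.0569 for Longview minus Skamania (0.92, SE 0.257) and 0.158 for Longview minus Columbia City (1.08, SE 0.277). Over all 21 fish its SD ranked 2927 of 4493, far outside the members.

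The other exception was LSS_UF_16114 (SuckerfishLSS_454Assem.32903.C1), lower in Columbia City by 0.68 log2 units (1.61-fold). Its 6 Columbia City fish lay from 6.56 to 7.79 with a median of 7.09, and the other fish from 7.24 to 8.20 with a median of 7.79. Limma adjusted p-values were 0.464 against Skamania and 0.158 against Longview. None of the probes chosen without a site was called by limma in any pair. Over eligible probes the background was 0.445% for Longview minus Skamania and 0 for the other 2 pairs, so a count of 0 is near that share. At an unadjusted p under 0.05 the F test held 3, 10 and 6 of these eligible probes, for the choices without Columbia City, Longview and Skamania. The background there was 13.3% over all probes tested and 7.70% over eligible probes.

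The fish of the left-out site also varied more than the fish that made the choice. Their RMS SD was 0.300 for Columbia City, 0.350 for Longview and 0.295 for Skamania, against 0.228, 0.205 and 0.228 in the fish of the other 2 sites. With moderated standard errors, the 95% interval of the left-out site lay within 2-fold in 197 of 198, 196 of 198 and 199 of 199 probes with a fit. The interval lay within 1.5-fold in 179, 165 and 184 of them. These standard errors pool the fish of every site, so they include the small spread that made the choice. The left-out fish varied more, so the intervals can be too narrow for that site. The counts are therefore descriptions and not a check free of the choice.

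A choice on the SD within sites, which does not use the site means, gave 200 probes of which 168 were members. Their median 95% bound over the 3 pairs was 1.45-fold and the farthest 1.98-fold, against 1.42-fold and 1.68-fold for the members. The interval lay within 1.5-fold in all 3 pairs in 122 of them, against 153 members. At an unadjusted p under 0.05 the F test held 15 of the 200, against 1 member and 7.70% over eligible probes. Their standard errors come from the spread within sites that chose them, so these counts are descriptions. On the authors' values the farthest bound of this set was 2.03-fold, and 199 of the 200 lay within 2-fold in all 3 pairs. Against a background of 2.84% over all probes tested and 0.445% over eligible probes, limma called 1 probe of this set for Longview minus Skamania. It was LSS_UF_22834 (SuckerfishLSS_454Assem.259.C1). Its fish lay from 9.41 to 10.06 in Longview with a median of 9.84, and from 10.12 to 10.68 in Skamania with a median of 10.47, with no overlap. The difference was -0.65 (SE 0.160, limma adjusted p = 0.0252), and its standard error comes from the spread within sites that chose it. Its SD over all fish, 0.388, placed it at rank 1052.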

How the data were processed

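Liver RNA of 21 fish was hybridised to 1-colour Cy3 arrays, 1 per fish. The authors' deposited scanner files hold spot intensity values, and the version of Agilent Feature Extraction is 10.1.1.1 per the file headers but 9.1 per the submitters' processing notes. The authors' deposited table holds log2 values with a column median of 6.10. Each column correlated by at least 0.9999 with the quantile-normalized processed signals of its array, so that step is read from the values. It chose the members. Each array had 8179 to 11806 probes well above background, and the number of arrays limits the precision.

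For the site tests, spots marked as outliers (555 of 319368 spot values) were left out, the log2 spots of a probe were averaged and the array's 75th percentile was subtracted. The moderated fits used limma 3.58.1 in R 4.3.3 with 18 residual degrees of freedom, were two-sided, and were tested on simulated data. Mean signals were not used here, so normexp was run on median signals. Python 3.11.15 and matplotlib 3.10.9 were used. Slides held arrays of all 3 sites and were tried as a block. Same-numbered fish share only a number.

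Probes named are the 10 members of smallest SD, the 3 on each side of the threshold, the 2 with the largest difference per pair, and the steadiest in each of 4 level classes. Gene lists could not be applied. The members, lists and alternatives were chosen with earlier results of these data known.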

Additional observations from a re-analysis of the deposited data

Results flagged for a closer look

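In 75 groups of 6 to 8 fish, 5 values had 1 fish beyond Dixon's 95% critical value, and chance gives about 1 in 20 groups. Of the 5, 4 were Longview 6. In LSS_UF_21387 it was at 9.53 on the authors' log2 scale, while the other Longview fish lay from 10.02 to 10.33. Its RMS deviation, when left out of the choice, was 0.585 against 0.265 to 0.375 for the other Longview fish. The median deviation of the 200 members in Longview 6 was 0.14 on the authors' scale, against -0.02 to 0.02, and 0.20 after 75th percentile scaling, against -0.004 to 0.03. The remaining value was LSS_UF_16396 in Columbia City 4, where the value was 10.29 and the site's other 5 fish spanned 10.66 to 10.88. These 5 come from 25 measures that share fish and arrays, so they are not independent of each other.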

How the results depend on the processing

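The members' median SD was 0.253 after median scaling and 0.234 to 0.245 over the fits that each left out 1 fish. Their ratio to the spot SD was 3.06 with the median over arrays, 1.99 with the spike-in spread joined (chosen after seeing the data), and 2.54 to 2.78 leaving out 1 fish each. Of the 200 members, 88 were shared with a choice on the median absolute deviation, 117 with the window from 8 to 10, 100 with 100 members, 124 without the Longview fish, and 156 to 187 without 1 fish. Median scaling, added later, shared 145. With no scaling, 0 members lay within 1.5-fold in all 3 pairs and the farthest bound was 1.49 log2 units. Within slides 1, 2 and 3 the count was 0 in each and the bounds were 1.93, 1.62 and 1.68, with fewer fish. The bound was 0.99 for probes chosen on the SD within sites. Leaving out 1 fish, 134 to 156 members lay within 1.5-fold and the bound was 0.74 to 0.82. With a replicate block 101 lay within 1.5-fold and 0 members were called; same-numbered fish correlated from -0.46 to 0.40 in 19 pairs, 7 of them over 0.1, and 3 arrays correlated best with their own number. Members called in any pair were 1 without moderation and 0 to 0 leaving out 1 fish. Over all probes tested, the F test called 194, but 101 on the authors' values, 102 after quantile normalization, 0 with normexp (813 at an unadjusted p under 0.05), 1 with detection on all 21 arrays, 0 within each slide, 486 with array weights, 343 without Columbia City 6 and 128 without Longview 1. The causes of these changes were not tested. The members' median difference for Columbia City minus Skamania changed from 0.003 to -0.003 on the authors' values and -0.11 after median scaling, and that for Longview minus Skamania from 0.04 to -0.03 after median scaling. The largest differences of the 5 members named for them kept their sign in all settings run. Calls for Longview minus Columbia City over all probes went from 0 to 191 without Columbia City 6, 79 with array weights and 104 with no scaling.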
